A study of Mus musculus with 4 samples.

Results

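Scavenger receptors were followed in white adipose tissue on 2 diets, low in fat (LFD) and high in fat (HFD). The group held 10 genes, Olr1, Msr1, Marco, Cd68, Cd163, Stab1, Stab2, Cd36, Scara3 and Scara5, listed by name. They were every non-control probe whose gene name on the array was one of these, which gave 15 of 41174 probes and 10 of 27617 genes. The tissue came from female C57BL/6 mice, an inbred laboratory strain, fed from 8 weeks of age for 18 weeks. The LFD was the standard feed CE2 and the HFD was the product High fat diet 32, both from CLEA Japan. No genotype or other treatment separated the groups. Each diet had 2 one-colour arrays, and the series text describes each sample as adipose tissue mixed from 3 mice. The fat depot is not named, and the sources used here do not say whether the 2 replicates of a diet were separate pools. The p-values therefore set the difference between diets against the spread of these samples within a diet, and that spread may be technical.

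Scavenger receptors are cell surface proteins that bind modified lipoproteins, dying cells, microbial products and other polyanionic ligands, and carry them into the cell for breakdown. Those of class A and the lectin-like receptor for oxidised low density lipoprotein take up cholesterol without the feedback that limits the low density lipoprotein receptor, and so are known from macrophages that fill with lipid. In adipose tissue, macrophages gather around dying fat cells in obesity, other macrophages reside in lean fat, and fat cells and capillary endothelium use Cd36 to take up fatty acids.

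The arrays read each transcript through designed probes. Among those for receptors of inflammatory macrophages 4, for Cd68, Marco and Msr1, are printed here as examples. The Olr1 probe and the third Msr1 probe are not printed. They are written 5′ to 3′ as the scanner files give them, each 60 bases long, with 27 to 33 of the bases G or C.
Cd68: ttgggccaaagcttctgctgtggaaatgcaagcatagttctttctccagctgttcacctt
Marco: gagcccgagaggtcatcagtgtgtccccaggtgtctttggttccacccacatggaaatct
Msr1 probe 1: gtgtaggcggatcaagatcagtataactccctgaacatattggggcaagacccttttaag
Msr1 probe 2: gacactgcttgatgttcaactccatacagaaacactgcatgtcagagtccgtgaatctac
All 4 lie on the minus strand of the mouse build mm9. The files place the Cd68 probe at chr11:69478314-69478373 and Msr1 probe 2 at chr8:40709296-40709355. The ends of Msr1 probe 1 lie at chr8:40691292-40693453, a span of 2162 bases for 60 bases of probe, so its parts are separated in the genome. The Marco probe is placed by only 20 bases, at chr1:122371115-122371134. Exon and intron positions are not stated, as mm9 gene models were not used here. Msr1 probe 2 matched both transcript variants of Msr1 in the files' annotation, and probe 1 matched only the first of them.

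RefSeq promoter sequences in build GRCm38.p6 matched 7 of the 10 genes, and Msr1, Scara3 and Scara5 had no entry. The 250 bases before the start are shown for Olr1 and Cd68, which rose on HFD, and for Cd163, which fell, with every match to TGANTCA, the site known for AP-1 factors, in capitals.
Olr1: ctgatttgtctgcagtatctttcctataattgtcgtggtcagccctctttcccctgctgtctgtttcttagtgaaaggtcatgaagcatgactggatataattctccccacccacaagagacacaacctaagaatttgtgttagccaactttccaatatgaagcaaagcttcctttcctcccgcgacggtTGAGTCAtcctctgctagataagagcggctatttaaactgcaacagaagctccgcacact
Cd68: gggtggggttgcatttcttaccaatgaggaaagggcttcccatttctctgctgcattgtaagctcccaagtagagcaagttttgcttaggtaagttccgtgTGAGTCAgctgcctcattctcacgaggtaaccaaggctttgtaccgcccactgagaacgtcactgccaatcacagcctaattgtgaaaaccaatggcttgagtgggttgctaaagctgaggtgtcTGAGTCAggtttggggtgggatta
Cd163: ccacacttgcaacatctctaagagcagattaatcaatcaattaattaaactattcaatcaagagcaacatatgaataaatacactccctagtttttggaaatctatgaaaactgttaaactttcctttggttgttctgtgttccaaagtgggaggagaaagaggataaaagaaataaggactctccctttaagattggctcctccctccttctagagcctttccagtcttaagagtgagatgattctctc
The windows are chr6:129507166-129507415 on the minus strand for Olr1, chr11:69666171-69666420 on the minus strand for Cd68 and chr6:124304401-124304650 on the plus strand for Cd163, each printed in the direction of the gene. Olr1 held TGAGTCA once, 60 to 54 bases before its start. Cd68 held it at 2 places, with first bases 149 and 24 before its start. TGANTCA reads as its own complement, so each match lies on both strands. It occurred in 2 of the 7 genes with an entry, against 6.75% of all 32851 promoter windows. Marco and Stab2, which also rose on HFD, have an entry and held no match. Whether the motif bears on the change between diets was not tested. A second motif, GAGGAA on either strand, a core bound by the myeloid factor PU.1, occurred in 4 of the 7 genes (Olr1, Cd68, Marco and Stab1), against 23.3% of all windows. The TATA box letters TATAAA occurred on neither strand of these 7 windows, against 12.4% of all windows. The searches did not overlap in these windows, and a match describes letters, not binding.

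All 4 arrays lay on 1 slide and came from 1 scan. On LFD replicates 1 and 2, 26420 and 27937 probes were well above background, against 27251 and 21312 on HFD replicates 1 and 2, and the negative control signal was 63.5 to 97.0 on the first 3 arrays and 109.5 on HFD replicate 2. Values below are log2 signals relative to the 75th percentile of each array's signals, written as the array level. A level of 1 probe cannot be set against that of another, because probes differ in brightness. Folds are differences of these log2 means turned back to a ratio, and p-values come from limma, adjusted over all 26054 tested probes by the Benjamini-Hochberg method, with 0.05 as the threshold. Fat cell markers served as a check of the tissue: all 12 of 12 passed the background filter. That filter asked for a signal well above background on both arrays of LFD or of HFD. Of the 12 markers 1, Retn, was lower on HFD and 0 were higher. At an unadjusted p under 0.05 with limma 5 were lower and 1 was higher, with a median log2 difference of -0.21.

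Receptors known from inflammatory macrophages rose on HFD, and those of resident macrophages and endothelium split. Of the 10 genes 5 were higher on HFD (Olr1, Msr1, Marco, Cd68 and Stab2), 1 was lower (Cd163) and 4 did not pass (Stab1, Cd36, Scara3 and Scara5). Across all 17736 genes tested, 5.75% were higher and 5.61% were lower at the same threshold. By each gene's brightest tested probe, the HFD arrays did not overlap the LFD arrays in 9 of the 10 genes, with Cd36 as the exception. The same held for 68.9% of all genes. The median difference between diets, HFD minus LFD on the log2 scale, was 0.99 over the 10 genes and 0.02 over all genes tested. Setting Olr1 to its lower bound could not move the median of the 10 genes, since the bound still lies above the middle values. Olr1 passed the background filter through HFD alone, so its call is set against an LFD level that was not measured. In bulk tissue, more or fewer cells of a type and more or less RNA per cell cannot be told apart.

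Olr1 encodes the lectin-like receptor LOX-1, which binds oxidised low density lipoprotein. Its probe, at chr6:129435316-129435375 in mm9 on the minus strand, was well above background on both HFD arrays and on neither LFD array. The array level was -6.84 and -6.75 in LFD and -2.10 and -2.74 in HFD. Both HFD arrays lay far above both LFD arrays, and HFD replicate 2 was the dimmer of the HFD pair. The corresponding linear signals were 7.23 and 7.91 in LFD against 200.6 and 116.8 in HFD. Both LFD signals were stand-in values that Feature Extraction writes for spots near background, so the LFD level is only bounded. Against the lowest signals well above background on the LFD arrays Olr1 was at least 4.46-fold higher on HFD. The fit gave an adjusted p of 0.0137 with limma, but its log2 difference of 4.38 is set by the stand-in values and is no measured size. With normexp background correction the difference was 1.65 on the log2 scale (SE 0.15, adjusted p = 0.0029), which is smaller than that bound. The normexp setting also adds a constant offset to every signal, which makes log2 differences of dim probes smaller. Its value therefore cannot test the bound, which was computed under the main background handling only. Fits without 1 array use the same stand-in values, so they say nothing about the stability of this call.

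The class A receptors Msr1 and Marco were higher on HFD by similar amounts. Msr1 encodes the macrophage scavenger receptor for acetylated and oxidised lipoproteins. Its brightest probe, probe 1, had array levels of -2.06 and -2.03 in LFD and -0.45 and -0.59 in HFD. Both HFD values stood apart from the LFD values, a 2.87-fold rise (log2 difference 1.52, SE 0.10, adjusted p = 0.0142 with limma). Msr1 probe 2 had levels of -3.32 and -2.44 in LFD and -1.20 and -1.26 in HFD. The LFD arrays differed from each other on this probe, and its log2 difference of 1.65 (SE 0.32, adjusted p = 0.0508) missed the threshold. The third Msr1 probe passed, with a log2 difference of 1.09 (SE 0.15, adjusted p = 0.0311), so the 3 probes shared a direction. Marco encodes a collagen-like receptor that binds bacteria and particles. Its levels were -0.86 and -0.38 in LFD and 0.88 and 0.87 in HFD. The HFD arrays nearly coincided and lay above both LFD arrays, a 2.82-fold rise (log2 difference 1.49, SE 0.19, adjusted p = 0.0260).

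Cd68, a heavily glycosylated protein of late endosomes and lysosomes that marks macrophages, had the largest rise among the member genes measured in both diets. The Cd68 levels were 0.84 and 0.79 in LFD and 3.18 and 3.02 in HFD. These groups were far apart next to the spread within each, a 4.87-fold rise (log2 difference 2.28, SE 0.11, 95% confidence interval 2.00 to 2.57, adjusted p = 0.0137 with limma). Leaving out either HFD array ended the calls for Msr1, Marco and Cd68. Without HFD replicate 1 the adjusted p was 0.0600, 0.0933 and 0.0571, and without HFD replicate 2 it was 0.0662, 0.123 and 0.0576. The log2 differences of these genes without either HFD array stayed between 1.45 and 2.36. Macrophage markers moved with these receptors: 11 of 14 rose and 0 fell, with a median log2 difference of 1.22, and their summed level, as a multiple of the 75th percentile, was 217 to 245 in LFD and 428 to 449 in HFD. A summed level, here and below, is weighted to the brightest probes of its list. None of the 14 markers was below background in both diets, and the part of macrophage number in these rises was not tested.

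**Figure D1:**
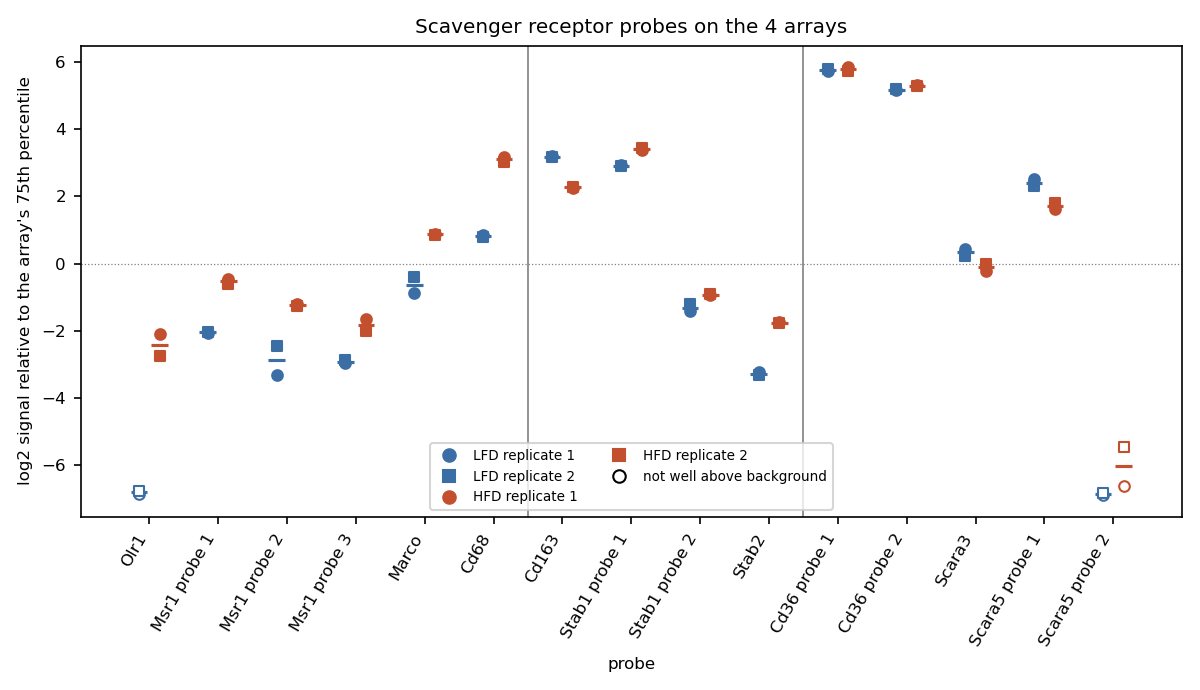
Signals of the 15 scavenger receptor probes on each of the 4 arrays, as log2 relative to the array's 75th percentile (vertical axis), with LFD in blue and HFD in red. Circles are replicate 1, squares replicate 2, short lines the diet means and open symbols values not well above background; vertical lines part the receptors of inflammatory macrophages (left), of resident macrophages or endothelium (middle) and of fat cells, endothelium or stroma (right), and levels of different probes cannot be compared. Olr1 is open in LFD only, and Cd163 is the only gene of the middle set whose HFD arrays lie below its LFD arrays.

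Among receptors of resident macrophages and endothelium, Cd163 fell, Stab2 rose and Stab1 did not pass. Cd163 encodes the receptor that clears haemoglobin bound to haptoglobin, and its product marks resident macrophages. Its probe, at chr6:124280484-124280543 in mm9 on the plus strand, had levels of 3.19 and 3.18 in LFD and 2.24 and 2.29 in HFD. Each pair of arrays lay close together, and both HFD arrays were below both LFD arrays, a 1.89-fold fall (log2 difference -0.92, SE 0.09, adjusted p = 0.0202 with limma). The size hardly moved when 1 array was left out, from -0.94 to -0.90, but the call was lost each time: the adjusted p was 0.0554 without LFD replicate 1, 0.0507 without LFD replicate 2, 0.0933 without HFD replicate 1 and 0.117 without HFD replicate 2. Resident macrophage markers did not move one way: of 10 tested, 3 were lower (Fcna, Timd4 and Lyve1) and 1 was higher (Clec10a), with a median of 0.17 and a summed level of 157 to 181 in LFD and 168 to 172 in HFD. Fcna, a plasma and macrophage ficolin, fell 2.81-fold and Timd4, a receptor for phosphatidylserine on dying cells, 3.25-fold, the latter measured above background on only 1 of the 2 HFD arrays. The part of resident macrophage number in the fall of Cd163 was not tested.

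Stab1 and Stab2 encode related large receptors that clear ligands such as acetylated lipoproteins, and Stab2 also binds hyaluronan. Stab2 is best known from sinusoidal endothelium and Stab1 from both such endothelium and resident macrophages. The Stab2 probe lay at chr10:86304198-86304257 in mm9 on the minus strand, and its levels were -3.23 and -3.31 in LFD and -1.74 and -1.77 in HFD. Both HFD arrays stood well above the LFD arrays, a 2.86-fold rise (log2 difference 1.52, SE 0.09, adjusted p = 0.0137 with limma). With normexp the log2 difference of Stab2, a dim probe, was 0.98 (SE 0.10, adjusted p = 0.0037). The offset added in that setting makes differences of dim probes smaller, and its part in this value was not tested. The Stab2 call was lost without HFD replicate 1 (adjusted p = 0.0597) and without HFD replicate 2 (0.0687). The brighter Stab1 probe had levels of 2.95 and 2.90 in LFD and 3.37 and 3.43 in HFD. The arrays of the diets did not overlap, yet the log2 difference of 0.48 (SE 0.09, 95% confidence interval 0.23 to 0.73, adjusted p = 0.0516) missed the threshold. The dimmer Stab1 probe gave 0.38 (SE 0.11, adjusted p = 0.102).

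Endothelial markers were measured beside the stabilins. Of 12 markers of endothelium 0 passed in either direction with limma (1 higher and 2 lower at an unadjusted p under 0.05), with a median log2 difference of 0.12 and a summed level of 91.4 to 96.9 in LFD and 92.0 to 107 in HFD. Of 10 markers of lymphatic and sinusoidal endothelium 8 were tested. Fcgr2b, an inhibitory Fc receptor, rose 1.70-fold and Lyve1, the hyaluronan receptor of lymphatic vessels that resident macrophages also carry, fell 1.78-fold. Prox1, the defining transcription factor of lymphatic endothelium, and Oit3 were not well above background on both arrays of either diet. The summed level of this list was 7.92 to 11.6 in LFD and 8.32 to 10.4 in HFD, so the diets overlapped. The sum leans on bright probes such as that of Ccl21a, whose array levels were 2.23 and 0.87 in LFD.

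Of the 3 receptors of fat cells and stroma 0 passed with limma, and at an unadjusted p under 0.05 there were 2, both lower (Scara3 and Scara5). Cd36 encodes a fatty acid transporter and class B scavenger receptor of fat cells, endothelium and macrophages. Its brighter probe had levels of 5.72 and 5.80 in LFD and 5.85 and 5.74 in HFD. The arrays of the diets overlapped, and the log2 difference was 0.03 (SE 0.10, adjusted p = 0.840 with limma), with a 95% confidence interval of -0.25 to 0.31. The other Cd36 probe gave 0.11 (SE 0.09, 95% confidence interval -0.13 to 0.36, adjusted p = 0.420). On that probe the HFD arrays (5.31 and 5.27) lay above the LFD arrays (5.17 and 5.19). No direction is given for Cd36, because the sign of its brighter probe turned under several settings. These were normexp, median scaling and leaving out LFD replicate 1 or HFD replicate 1.

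Scara3 encodes a class A family member that responds to oxidative stress. Its levels were 0.45 and 0.24 in LFD and -0.20 and -0.01 in HFD. Both HFD arrays were below both LFD arrays, with a log2 difference of -0.45 (SE 0.13, adjusted p = 0.103) that missed the threshold. Scara5, a ferritin receptor of stromal cells, had levels of 2.52 and 2.30 in LFD and 1.61 and 1.81 in HFD. The diets did not overlap here either, and the log2 difference of -0.70 (SE 0.13, 95% confidence interval -1.07 to -0.34, adjusted p = 0.0505) fell just outside the threshold. A second Scara5 probe, which the files assign to another transcript variant, was not well above background on any array and was not tested. Its signals were stand-in values on all 4 arrays. Of 14 markers of fibroblasts and preadipocytes 2 were lower, Pdgfra (1.63-fold) and Dpp4 (1.77-fold), and 0 were higher, with a median of 0.01 and summed levels of 460 to 519 in LFD and 463 to 479 in HFD. Of 12 mesothelium markers 11 were lower, with summed levels of 43.1 to 45.2 in LFD and 12.0 to 15.2 in HFD. Their part in the values of Scara3 and Scara5 was not tested.

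**Figure D2:**
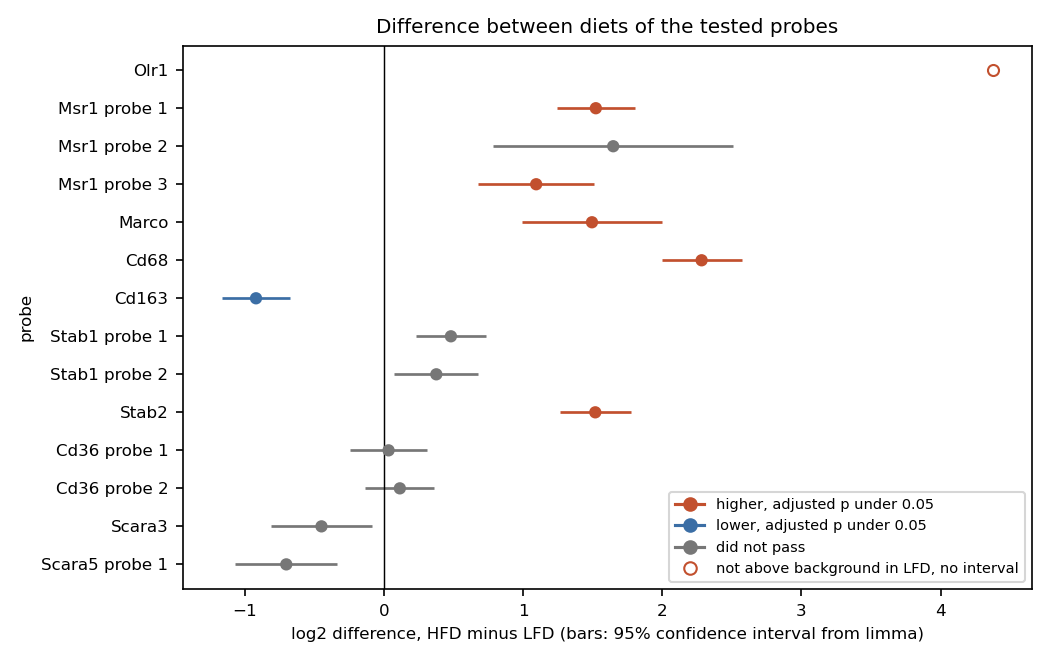
Difference between diets (horizontal axis, log2, HFD minus LFD) of the 14 tested scavenger receptor probes, with bars for the 95% confidence interval from limma. Red and blue mark probes that passed an adjusted p of 0.05 as higher or lower and grey those that did not; Olr1 is drawn open and without an interval, because it was above background in HFD only and its position rests on stand-in values, and the intervals of both Cd36 probes span 0.

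Within-array comparisons of 2 members cancel a constant scale factor per array, but not quantile scaling or another background correction. The log2 ratio of Cd68 to Cd163 was higher on HFD by 3.20, with an SD of 0.14 in HFD and 0.02 in LFD (n = 2 each). That of Msr1 to Cd163 was higher by 2.44 (SD 0.14 in HFD and 0.03 in LFD) and that of Stab2 to Stab1 by 1.04 (SD 0.06 and 0.02). Each value is the gap between the changes of the 2 genes given above, so it restates them and is no separate result. With normexp the 3 differences were 3.04, 2.09 and 0.55, so that of Stab2 to Stab1 was much smaller. Stab2 is the dim probe of that pair, and the part of the normexp offset in the smaller value was not tested. In each pair the arrays of the diets did not overlap, and 2 arrays against 2 can give no exact permutation p below 0.333 (two-sided), the value found for all 3. The pairs were chosen after their values were seen. Also computed were Stab2 to Cd163, with a difference of 2.44, and Scara5 to Scara3, with -0.25.

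Most other scavenger receptors did not pass the test. Of 27 further receptors 21 were tested, 3 were higher and 2 were lower, beside 5.75% and 5.61% of all genes, with a median log2 difference of 0.29. Clec7a, the beta-glucan receptor dectin-1, rose 3.12-fold (log2 difference 1.64, SE 0.18, adjusted p = 0.0227 with limma). Cd5l, a secreted protein of the scavenger receptor cysteine-rich family made by macrophages, rose 2.04-fold, and Scarb2, a lysosomal membrane protein, rose 1.59-fold. The 2 lower genes were Timd4, given above among resident macrophage markers, and Colec12. Colec12 fell 1.48-fold (log2 difference -0.57, SE 0.09, adjusted p = 0.0391 with limma).

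Genes that handle cholesterol and lipid after uptake were higher or did not pass. Of 20 genes tested 6 rose and 0 fell, beside 5.75% and 5.61% of all genes, with a median log2 difference of 0.32. Abcg1, which exports cholesterol to high density lipoprotein, rose 4.43-fold (log2 difference 2.15, SE 0.13, adjusted p = 0.0137 with limma). Nceh1, which frees cholesterol from its esters, rose 3.76-fold, Soat1, which forms those esters, 3.00-fold, and Lipa, the lysosomal acid lipase, 2.51-fold. The risen genes named here act in esterification, ester breakdown and export, and most of the list did not pass. Abca1, for one, had a log2 difference of 0.001 (SE 0.10, adjusted p = 0.995 with limma). Co-receptors and signalling partners had 8 of 24 genes higher and 0 lower, beside the same shares of all genes, with a median of 0.38. Itgb2, the beta chain of leukocyte integrins, rose 3.38-fold, and the adaptors Tyrobp and Fcer1g 3.29-fold and 2.72-fold. With each array scaled to its median the median of all genes was -0.07 in place of 0.02, a shift that bears on list medians near 0.

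**Figure D3:**
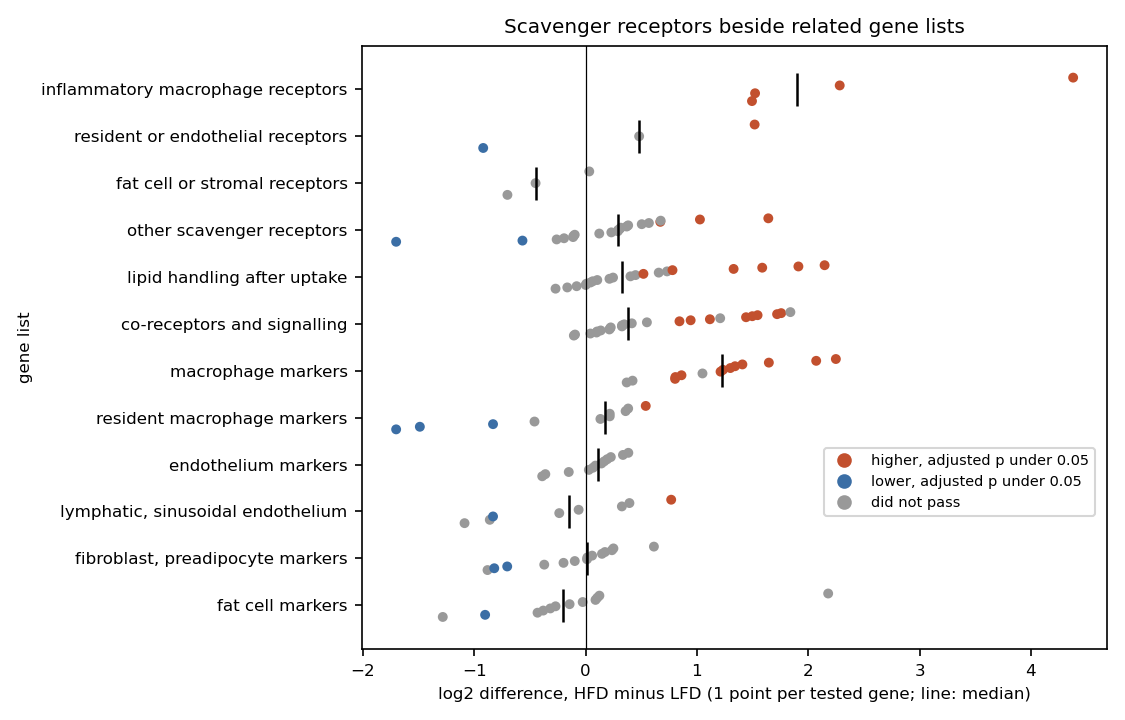
Difference between diets (horizontal axis, log2, HFD minus LFD) of each tested gene in the scavenger receptor sets and in related gene lists, 1 point per gene, with the list median as a vertical line; red and blue points passed an adjusted p of 0.05 as higher and lower. All 4 receptors of inflammatory macrophages are red, but Olr1 passed the background filter through HFD alone and its position rests on stand-in values. The macrophage markers have their median at 1.22. No gene in the row of endothelium markers passed, while in the row of lymphatic and sinusoidal endothelium Fcgr2b was higher and Lyve1 lower.

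Genes whose profile over the 4 arrays lay nearest to that of Olr1 were Cxcl1, Dppa3 and Pvalb. Likeness was the Euclidean distance between log2 values centred on each gene's mean over the 4 arrays, and it was 0.16 for Cxcl1, 0.22 for Dppa3 and 0.32 for Pvalb. None of the 3, like Olr1, was well above background on either LFD array, so the order rests on values at the floor and on the HFD arrays. Cxcl1, a chemokine that attracts neutrophils, had levels of -6.83 and -6.60 in LFD and -1.90 and -2.52 in HFD. Like Olr1, it was dimmer on HFD replicate 2 than on HFD replicate 1. So were Dppa3, a gene of early embryos, and Pvalb, which encodes the calcium buffer parvalbumin. The genes were picked by distance over these same arrays, so this likeness follows from the choice and is no separate result. Among neutrophil markers 5 were tested, of which 2 rose and 1 fell. Of 10 muscle markers 1 was called higher, Pvalb itself, against an LFD level that was not measured, and 0 were lower. Of 9 lymphocyte markers tested 0 passed with limma, with 1 higher at an unadjusted p under 0.05.

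**Figure D4:**
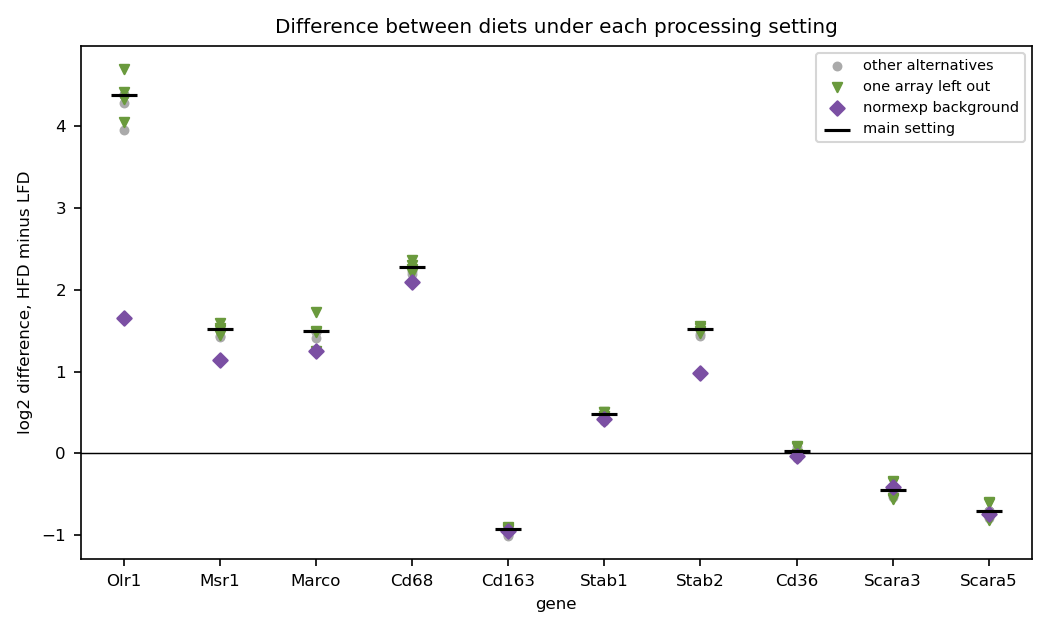
Difference between diets (vertical axis, log2, HFD minus LFD) of each scavenger receptor gene under the main setting (black line), normexp background correction (purple diamonds), with 1 array left out (green triangles) and under the other alternatives (grey circles). The sign held in every setting shown for 9 genes and not for Cd36; Olr1, whose LFD values are stand-ins, lies at 4.38 in the main setting and at 1.65 with normexp.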

How the data were processed

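RNA of white adipose tissue, 500 ng per sample per the labels, went onto 4 one-colour arrays, with 2 for each diet. The spot values are linear intensities deposited as scanner output, with background subtracted by Feature Extraction, per the file headers. Its version is 11.0.1.1 in the headers and 11.5.1.1 in the submitters' processing notes. The authors' deposited value table holds each signal's ratio to its array's 75th percentile. Here, spots flagged as outliers (60 to 115 per array) were left out, spots of a probe averaged and log2 signals set relative to the array's 75th percentile. Probes with a signal well above background on both arrays of LFD or of HFD were fitted with limma 3.58.1 (R 4.3.3), with 2 residual degrees of freedom. A gene was represented by its brightest tested probe. The number of arrays limits the precision. Symbols were updated through a RefSeq table, used for names only, and none of the members changed. All 10 members are named, with up to 4 called genes of smallest p from each list described and the 3 genes nearest to Olr1. Colec12 is named in addition, as the other lower gene of its list. The members and lists were chosen with earlier results of these data known. Fitting was tested on simulated data. Alternatives were normexp (offset 50), quantile and median scaling, the deposited table, other filters, flagged spots kept, probe means, trend and robust options, a replicate block, each array left out and a threshold of 0.10.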

Additional observations from a re-analysis of the deposited data

How the results depend on the processing

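Members lower on HFD numbered 2, Cd163 and Scara5, in place of 1 with normexp, quantile scaling, median scaling, a signal well above background required on all 4 arrays (where Olr1 was not tested), the trend and robust options and a threshold of 0.10. Stab1 passed as higher with normexp, the requirement on all 4 arrays, the trend and robust options and a threshold of 0.10. Genes higher numbered 1611 with normexp, 1599 with the requirement on all 4 arrays, 1826 (and 1808 lower) with the trend and robust options and 2260 (and 2188 lower) at 0.10, against 1019 and 995 in the main setting. Median scaling gave 852 higher and 1334 lower, and quantile scaling 971 and 1235. With no filter on dim probes limma called 0 genes and 0 members in either direction. An unadjusted p under 0.05 was found for 5608 genes, against 6188 in the main setting, and for 6 members as higher and 2 as lower. More probes were then tested, and the SE of each member was larger too, for Cd68 0.13 in place of 0.11. The replicate numbers are not said to pair arrays, so the main fit used no block. The deviations of same-numbered arrays had a correlation of -0.0046, which is 1 independent value with 2 arrays per diet. With the replicate number as a block 4 members were higher and 0 lower, and 220 genes higher and 208 lower. Marco (adjusted p = 0.0565 with limma) and Cd163 (0.0562) then lost their calls. Leaving out 1 array gave 1 to 5 members higher and 0 lower, 9 to 471 genes higher and 9 to 338 lower; without HFD replicate 1, 10 and 9 genes, and without HFD replicate 2, 9 and 9. The member called in both of the latter was Olr1, whose LFD values are stand-ins, so this says nothing about its stability. The log2 difference of Cd36, 0.033 in the main setting, was -0.035 with normexp and -0.055 with median scaling, and with 1 array left out it ranged from -0.026 (without HFD replicate 1) to 0.091 (without HFD replicate 2), with -0.0079 without LFD replicate 1; the other 9 members kept their sign in every alternative that tested them. The causes were not tested. The deposited table, flagged spots kept and probe means changed no member's call. A lone array left in a diet was assumed to vary like the other pair. The slide could not be a block, since all arrays shared it. Signal over background limits Olr1, whose LFD level is only bounded.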
